A study of Mus musculus with 12 samples.

Results

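Rab genes encode the largest family of small GTPases, the switches that give membrane compartments their identity and direct vesicle traffic. The 55 genes described here are the autosomal protein-coding genes of the GENCODE M21 annotation whose symbol is Rab, a number and at most 1 letter, of 20807 autosomal protein-coding genes in all. A prenyl group anchors a Rab protein in a membrane. Exchange factors (GEFs) load it with GTP so that it can bind effectors such as tethers and motors, and GTPase-activating proteins (GAPs) switch it off. In adipocytes, insulin drives vesicles with the glucose transporter GLUT4 to the plasma membrane, and Rab10, Rab8a and Rab14 are known members of that route.

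MOF, also called KAT8, is an acetyltransferase of histone H4. Chromatin immunoprecipitation with a MOF antibody and sequencing (ChIP-seq) was carried out in visceral white adipose tissue (WAT) of C57BL/6 mice at 8 weeks of age on a standard diet, from wild-type animals (Mof+/+) and from animals heterozygous for Mof (Mof+/-). By the labels there were 12 libraries, with 2 of MOF ChIP per genotype, and 2 each of H3 ChIP and input that, like the signal tracks, were not analysed here. For ChIP-seq, the study's reporting summary names 2 littermates per genotype. The design text of the series instead counts 3 Mof+/- animals beside 2 controls, and the MOF antibody in the labels is not among those in that summary. The data analysed here are 1 peak list for each genotype, with 19579 autosomal peaks for Mof+/+ and 712 for Mof+/-. How the libraries were combined in a list is not stated, so the differences below have no replicate check, and intervals cover counting error only. The labels do not name the Mof allele of the heterozygous animals, and WAT holds immune and vascular cells beside adipocytes. A promoter peak is a peak with any base within 1000 bp of an annotated start site of the gene.

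To ask where MOF lay along the Rab family, the peaks at each start site were read first. In Mof+/+ WAT, 37 of the 55 Rab genes had a promoter peak (67.3%, 95% Wilson interval 54.1 to 78.2), beside 42.7% of all autosomal coding genes. In Mof+/- WAT, 0 of 55 had one, which allows a share of up to 5.45%, beside 1.37% of all coding genes. By role, a Mof+/+ promoter peak lay at 5 of 5 genes for GLUT4 traffic (100%, 56.6 to 100), 9 of 10 for the endoplasmic reticulum (ER) and Golgi (90%, 59.6 to 98.2) and 3 of 8 for regulated secretion (37.5%, 13.7 to 69.4). These intervals overlap. Start sites of Rab genes are rich in CpG sites, and coding genes of like CpG content had a promoter peak in 58.3% of cases, averaged over the bins in which the Rab genes fall. CpG content also differed by role, with a median of 78 sites for GLUT4 traffic, 83.5 for the ER and Golgi and 40.5 for regulated secretion. In the bins that hold these medians, 71.5%, 72.8% and 39.3% of coding genes had a promoter peak, respectively. Whether the roles differ beyond their CpG content was not tested. No test of the share of a gene group was run, since the lists hold no replicate values.

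The GLUT4 traffic genes illustrate how a promoter and its peak lie to each other. The 250 bases before the RefSeq start site of Rab14, Rab8a and Rab10 are shown with every CpG in capitals, 5′ to 3′ on the gene's strand, GRCm38.p6. The Rab14 stretch is chr2:35201121-35201370 on the minus strand with 23 CpG sites, and all 250 of its bases lay inside the peak. The Rab8a stretch is chr8:72160950-72161199 on the plus strand with 18 CpG sites, and the Rab10 stretch is chr12:3309970-3310219 on the minus strand with 34. These stretches held no peak bases. The Rab8a stretch was 59 bp from the nearest peak and the Rab10 stretch 114 bp.
Rab14: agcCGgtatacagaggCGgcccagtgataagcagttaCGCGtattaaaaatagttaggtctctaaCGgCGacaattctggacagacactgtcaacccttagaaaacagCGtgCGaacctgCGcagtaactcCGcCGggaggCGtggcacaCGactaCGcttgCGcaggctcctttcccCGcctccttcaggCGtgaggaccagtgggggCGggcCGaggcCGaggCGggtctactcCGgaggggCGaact
Rab8a: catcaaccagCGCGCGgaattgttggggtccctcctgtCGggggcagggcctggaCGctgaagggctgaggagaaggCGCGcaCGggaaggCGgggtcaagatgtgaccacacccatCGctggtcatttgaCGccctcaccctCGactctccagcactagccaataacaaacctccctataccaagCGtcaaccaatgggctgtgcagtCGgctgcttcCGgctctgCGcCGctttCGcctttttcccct
Rab10: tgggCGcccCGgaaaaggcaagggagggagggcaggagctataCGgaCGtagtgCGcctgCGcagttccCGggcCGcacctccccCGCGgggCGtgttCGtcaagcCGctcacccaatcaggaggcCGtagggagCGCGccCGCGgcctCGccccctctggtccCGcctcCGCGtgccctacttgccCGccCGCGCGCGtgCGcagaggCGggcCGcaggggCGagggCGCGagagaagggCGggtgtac

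Rab43 had the highest enrichment in the family, and its stretch at chr6:87811780-87812029 on the minus strand, with 21 CpG sites, lay wholly inside its peak. For contrast, 3 genes without a promoter peak are shown. Rab23 at chr1:33719646-33719895 on the plus strand has 9 CpG sites in these 250 bases. Rab27a at chr9:73044560-73044809 on the plus strand has 14, and Rab3b at chr4:108878820-108879069 on the plus strand has 6. The nearest Mof+/+ peak was 49141 bp, 4615 bp and 30182 bp away from these stretches, respectively.
Rab43: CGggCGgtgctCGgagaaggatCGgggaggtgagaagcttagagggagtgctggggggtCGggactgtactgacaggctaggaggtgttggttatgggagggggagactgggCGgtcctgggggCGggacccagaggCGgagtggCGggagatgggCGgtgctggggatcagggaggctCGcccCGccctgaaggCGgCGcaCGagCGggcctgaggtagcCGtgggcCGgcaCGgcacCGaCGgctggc
Rab23: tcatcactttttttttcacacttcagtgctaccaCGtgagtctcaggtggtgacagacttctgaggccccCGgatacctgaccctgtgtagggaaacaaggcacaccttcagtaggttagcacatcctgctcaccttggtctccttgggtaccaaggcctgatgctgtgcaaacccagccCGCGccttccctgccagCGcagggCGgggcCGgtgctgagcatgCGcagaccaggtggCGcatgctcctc
Rab27a: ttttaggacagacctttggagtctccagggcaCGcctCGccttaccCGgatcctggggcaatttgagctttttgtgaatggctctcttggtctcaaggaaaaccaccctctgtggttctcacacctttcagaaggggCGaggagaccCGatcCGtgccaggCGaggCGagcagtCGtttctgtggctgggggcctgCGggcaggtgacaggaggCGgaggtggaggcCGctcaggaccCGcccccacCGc
Rab3b: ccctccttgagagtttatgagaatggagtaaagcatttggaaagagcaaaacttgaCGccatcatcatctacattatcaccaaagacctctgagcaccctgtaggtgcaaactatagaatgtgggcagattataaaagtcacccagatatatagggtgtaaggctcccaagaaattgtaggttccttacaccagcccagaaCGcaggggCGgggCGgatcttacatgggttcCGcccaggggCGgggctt

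RefSeq promoters of 300 bases (250 before the start site and 50 after it) were at hand for 44 of the 55 Rab genes and for 15687 coding genes. The GC box GGGCGG, read on both strands, was in 79.5% of these Rab genes and in 51.7% of the coding genes. Within the family it was in 25 of 32 genes with a peak and in 10 of 12 without. The CCAAT box was in 19 of 32 and 6 of 12 (41.7% of coding genes), the E box CACGTG in 4 of 32 and 2 of 12 (9.22%), and the TATA box TATAAA in 2 of 32 and 1 of 12 (14.4%). The ETS motif CCGGAAG was in 4 of 32 and 1 of 12 (13.6%), the NRF1 core GCATGCGC in 1 of 32 and 1 of 12 (4.14%), and the CRE TGACGTCA in 2 of 32 and 0 of 12 (2.7%). None of these letters divided the genes with a peak from those without.

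Enrichment was then compared among the 37 Rab genes with a peak. The fold enrichment of a peak is the ratio of fragments over its summit to the input background, each raised by 1. For the strongest promoter peak of a gene, the median was 4.42 in the Rab genes (quartiles 3.54 and 4.83, range 2.56 to 6.73) and 3.98 in the coding genes with a peak (3.35 and 4.87). Solving fold and p for whole fragments gave a median of 19 fragments over the summit in Rab genes and 19 in coding genes. At the lowest background of 3.52 fragments, which held for 24 of the 37 peaks, 1 fragment moved the fold by 0.221. Neighbours in the order of Rab genes thus often differed by a single fragment. The highest and the lowest of these 37 peaks had 30 fragments at Rab43 (exact Poisson 95% interval 20.2 to 42.8) and 12 at Rab42 (6.2 to 21).

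**Figure D1:**
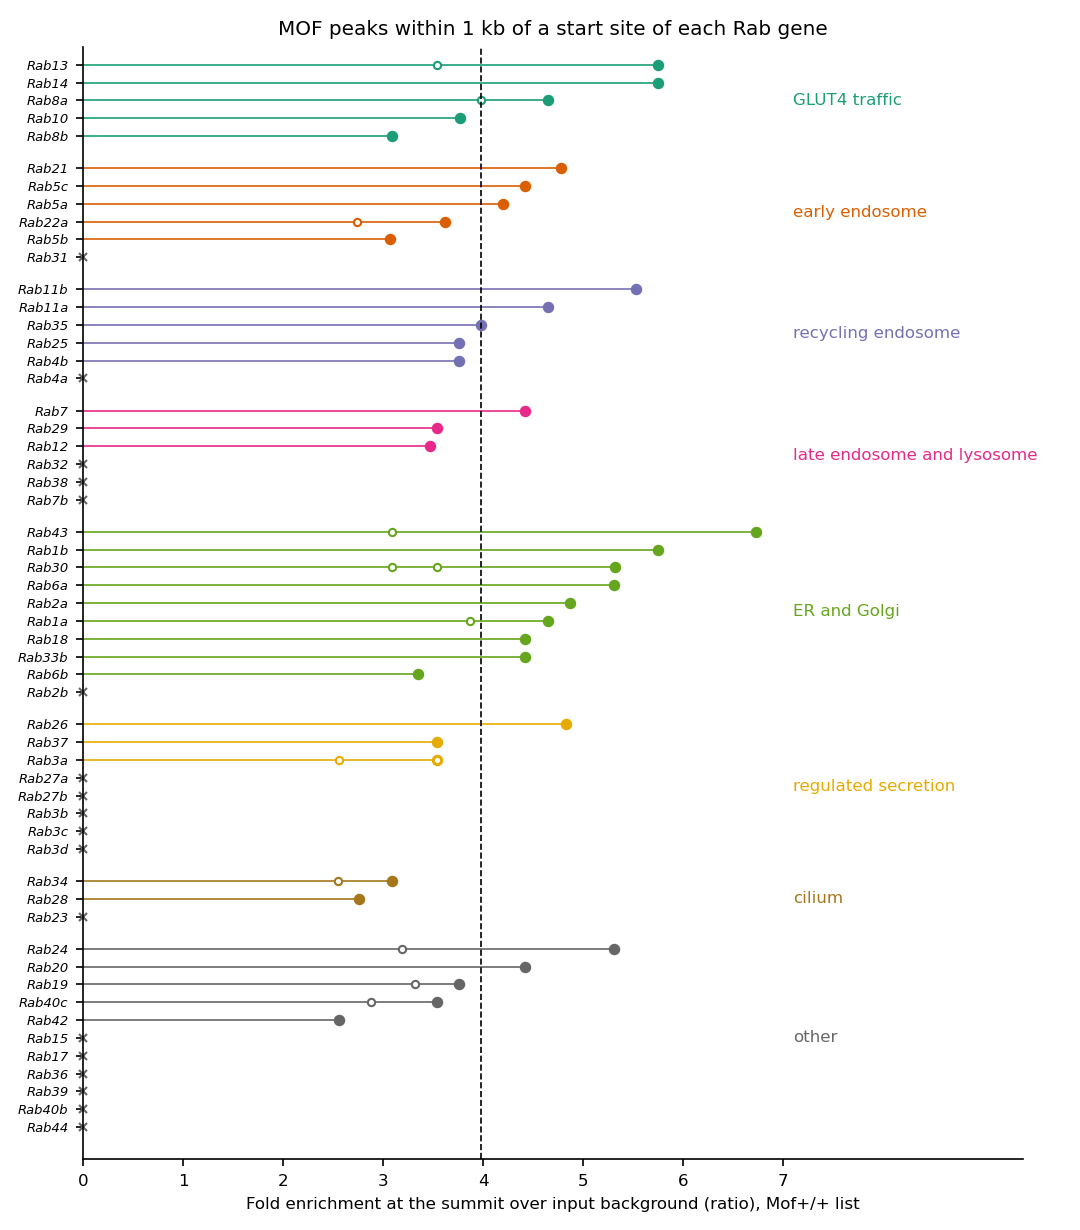
Fold enrichment (ratio, x axis) of every Mof+/+ promoter peak of the 55 Rab genes, grouped by role. Filled circles are the strongest peak of a gene, open circles its other promoter peaks, crosses at 0 the 18 genes without a promoter peak, and the dashed line is the median of coding genes with a peak (3.98). Among the strongest peaks, that of Rab43 is highest at 6.73 and that of Rab42 lowest at 2.56.

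All 5 genes of GLUT4 traffic had a promoter peak, and their median fold was 4.65. Rab14, which acts on GLUT4 vesicles and endosomes, had 1 peak at chr2:35200060-35201526 with a fold of 5.75 and 25 fragments (16.2 to 36.9). It covered the start site, and its summit lay 291 bp downstream of the nearest own start, in a noncoding exon. The peak was wide (1467 bp, beside a median of 905 bp for Rab genes) and its −log10 q of 9.75 was well above the family's median of 5.51.

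Rab8a, which carries GLUT4 vesicles chiefly in muscle, had a peak on each side of its start. The upstream one, chr8:72160490-72160891, had the higher fold of 4.65 with 20 fragments (12.2 to 30.9), and its summit was 418 bp before the start. This summit was only 73 bp from the start of Gm16091, so to which of these genes the peak belongs cannot be told apart. The other, chr8:72161389-72162595, had a fold of 3.98 with 17 fragments (9.9 to 27.2) and a summit in an intron, 353 bp after the nearest own start. It also came within 1000 bp of the start of Gm16091, so Rab8a had no promoter peak once peaks that reach another gene's start were left out. The intervals of these peaks overlap, and whether the peaks differ was not tested.

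Rab10, the main Rab protein of insulin-stimulated GLUT4 traffic in adipocytes, had 1 narrow peak at chr12:3309381-3309856. Its fold was 3.77 with 18 fragments (10.7 to 28.4), below the median of coding genes with a peak, and its −log10 q was 4.18. The peak began 113 bp inside the gene, with its summit in an untranslated region 144 bp after the start. No other gene starts near it, the closest being 47328 bp from the summit. Rab13, a GLUT4 carrier of muscle cells, equalled Rab14 with a fold of 5.75 at chr3:90212707-90213921, but the summit was 13 bp from the start of Rps27, a ribosomal protein gene. That peak lay at an alternative start of Rab13. At the principal start of Rab13, the peak at chr3:90220331-90220631 had a fold of 3.54. The median fold of the GLUT4 traffic group uses the higher of these values. Rab8b was among the 5 lowest, with 3.09.

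Of 10 genes for the ER and Golgi, 9 had a promoter peak, with a median fold of 4.87 and a range from 3.35 (Rab6b) to 6.73. Rab43, which acts in ER and Golgi traffic, led the family with a fold of 6.73 at chr6:87810168-87812808, the widest strongest peak of any Rab gene (2641 bp), and it ranked 257 among coding genes by fold. Rab1b, which directs ER-to-Golgi transport, had 5.75 at chr19:5105858-5107679, the same fold as Rab13 and Rab14, and 25 fragments lay over its summit. Its paralogue Rab1a had 4.65, Rab2a 4.87 and Rab6a 5.31. The Rab6a summit was nearer to the start of Mrpl48 (120 bp) than to its own (184 bp). Rab18, a protein of lipid droplets and the ER, had a peak at chr18:6764496-6765400 with a fold of 4.42 and 19 fragments (11.4 to 29.7). Rab2b alone in this group had none, although its start lies 20 bp from that of Tox4. The nearest Mof+/+ peak was 10672 bp away.

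Most genes of the early and recycling endosome had a peak. Peaks lay at 5 of 6 genes of the early endosome (83.3%, Wilson interval 43.6 to 97, median fold 4.20), beside 42.7% of all coding genes. Their median CpG count was 81.5, and coding genes in the bin of 79 to 96 sites had a peak in 72.8% of cases. Rab5a, the organizer of early endosomes, had a fold of 4.20 with 18 fragments at chr17:53478696-53480303, Rab5c had 4.42 and Rab21 4.78. Rab5b was among the lowest with 3.07, and its peak did not reach the gene itself, lying 446 bp upstream. Rab31 had no promoter peak. Of 6 genes of the recycling endosome, 5 had a peak (83.3%, Wilson interval 43.6 to 97, median fold 3.98). Here the median CpG count was 58.5, and coding genes in the bin of 56 to 67 sites had a peak in 63.3% of cases. Rab11b was among the 5 highest with 5.53 at chr17:33760028-33760957 and 24 fragments, and Rab11a, the usual marker of recycling endosomes, had 4.65 with 20 fragments at chr9:64736876-64738223. Rab4a had none, while Rab4b had a fold of 3.76.

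Of 6 genes of the late endosome and lysosome, 3 had a peak (50%, Wilson interval 18.8 to 81.2), a share near the 42.7% of all coding genes. Their median CpG count was 46, and coding genes in the bin of 45 to 56 sites had a peak in 56% of cases. Rab7, which drives fusion with lysosomes, had 4.42 with 19 fragments at chr6:88044870-88045588, Rab29 had 3.54 and Rab12 3.47. Rab7b, Rab32 and Rab38 had none, and the last pair serve melanosomes and related organelles. In regulated secretion, 3 of 8 genes had a peak, which is also near the 42.7% of all coding genes. Rab3a, a protein of synaptic vesicles, had 3 promoter peaks with folds of 3.54, 3.54 and 2.56. Rab37 had 3.54. Rab26 had 4.83, but its peak came near only a start site inside the gene (352 bp), and the summit was 219 bp from Snord60 and within reach of Traf7. It was the only one of the 37 genes without a peak at its principal start. Rab3b, Rab3c, Rab3d, Rab27a and Rab27b, which serve secretory granules and vesicles, had none. Among genes tied to cilia, Rab34 (3.09) and Rab28 (2.76) had weak peaks and Rab23 had none.

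**Figure D2:**
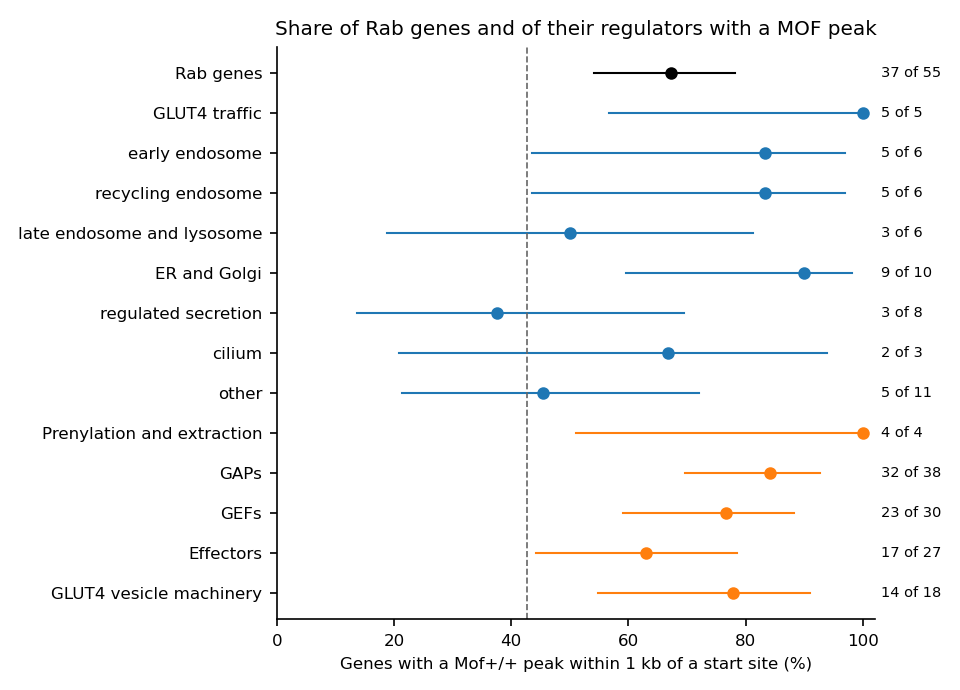
Percent of genes with a Mof+/+ peak within 1 kb of a start site (x axis) for the Rab genes (black), their role groups (blue) and their regulators (orange). Bars are 95% Wilson intervals, numbers on the right are counts, and the dashed line is the share of all autosomal coding genes, 42.7%. Among the roles the shares run from regulated secretion (3 of 8) to GLUT4 traffic (5 of 5), with intervals that overlap. The median CpG counts of these groups also differ (40.5 and 78).

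Paralogues did not always share a peak. Of 11 sets of genes with the same number, 25 genes in all, 5 had a peak at every gene (Rab1, Rab5, Rab6, Rab8 and Rab11). In 5 sets only some genes had one. There Rab2a, Rab3a, Rab4b, Rab7 and Rab40c had a peak, and Rab2b, Rab3b, Rab3c, Rab3d, Rab4a, Rab7b and Rab40b did not. The Rab27 set had none. No interval for such a contrast exists within a single list.

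The 18 genes without a promoter peak differed widely in their distance to a peak. No such distances are given here for other coding genes without a promoter peak. The median distance from a start site to the nearest Mof+/+ peak was 35164 bp, and none lay between 1000 bp and 4909 bp. The closest was at Rab27a (4909 bp), which also had 1 peak inside the gene body, the only one of the 18 to do so. Rab31 followed with 9999 bp, Rab2b with 10672 bp, Rab15 with 14604 bp, Rab44 with 16586 bp and Rab36 with 22523 bp. The distance was 30425 bp for Rab3b, 31667 bp for Rab4a, 33307 bp for Rab40b, 37020 bp for Rab3d, 38697 bp for Rab39, 49304 bp for Rab7b and 49382 bp for Rab23. Farther still were Rab17 (82931 bp), Rab3c (113774 bp), Rab38 (144505 bp), Rab27b (330743 bp) and Rab32 (722087 bp). Windows of 500 bp or 3000 bp in place of 1000 bp gave the same count of 37 genes with a peak. A missing peak says that no peak passed the caller at this depth, not that MOF was absent. The X-linked genes Rab9, Rab9b, Rab33a and Rab39b fall outside the family as defined here, and none had a promoter peak.

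CpG content moved with the presence of a peak. In the 1001 bp around the principal start, the median was 73 CpG sites in the 37 Rab genes with a peak and 45.5 in the 18 without, beside 68 and 19 in all coding genes. With at least 40 CpG sites, 33 of 45 Rab genes had a peak (73.3%), beside 66.2% of coding genes. With fewer, 4 of 10 did (40%), beside 14.9%, namely Rab13, Rab19, Rab25 and Rab42. Among the most CpG-rich, Rab35 stood first with 137 sites and had a fold of 3.98. Exceptions ran both ways, since Rab23 with 93 sites, Rab15 with 83 and Rab2b with 75 had no peak. The enzyme CviKI-1, used to fragment the chromatin, cuts GC where a purine precedes and a pyrimidine follows. The median number of such sites per kb was 29 in Rab genes with a peak and 27 in those without, beside 27 and 22 in coding genes. Whether CpG content or cutting sites contribute to the share of Rab genes was not tested.

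**Figure D3:**
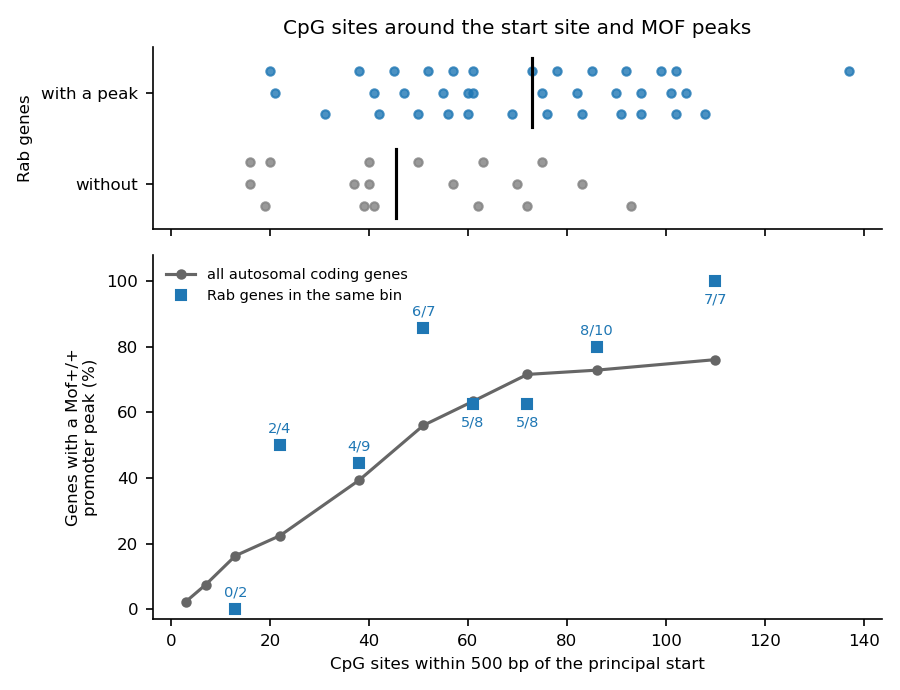
Top, CpG sites in the 1001 bp around the principal start of each Rab gene with and without a Mof+/+ promoter peak (circles are genes, spread vertically for sight, bars are medians of 73 and 45.5). Bottom, percent of genes with a promoter peak against the median CpG count of 10 bins of coding genes (grey) and for the Rab genes in the same bins (blue squares, with counts). In the 2 bins richest in CpG sites, 15 of 17 Rab genes had a peak.

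Peaks sat close to the start sites. The strongest summit lay a median of 184 bp from the nearest own start of a Rab gene (range 31 to 1485 bp), beside 192 bp in coding genes with a peak. It was downstream of that start in 24 of 37 Rab genes (64.9%, coding genes 60.4%). By annotation, 12 summits were upstream of the gene, 10 in an intron, 10 in an untranslated region, 4 in coding sequence and 1 in a noncoding exon. The strongest peak covered an own start in 25 Rab genes (67.6%, coding genes 74.2%). The summit farthest from its own start belonged to Rab19, 1485 bp upstream in a peak that ended 190 bp before the gene. Of the 26 Rab genes with start sites far enough apart (over 2000 bp) to count as separate promoters, 17 had a peak, and 3 of these, Rab13, Rab30 and Rab43, had one at more than 1 promoter.

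**Figure D4:**
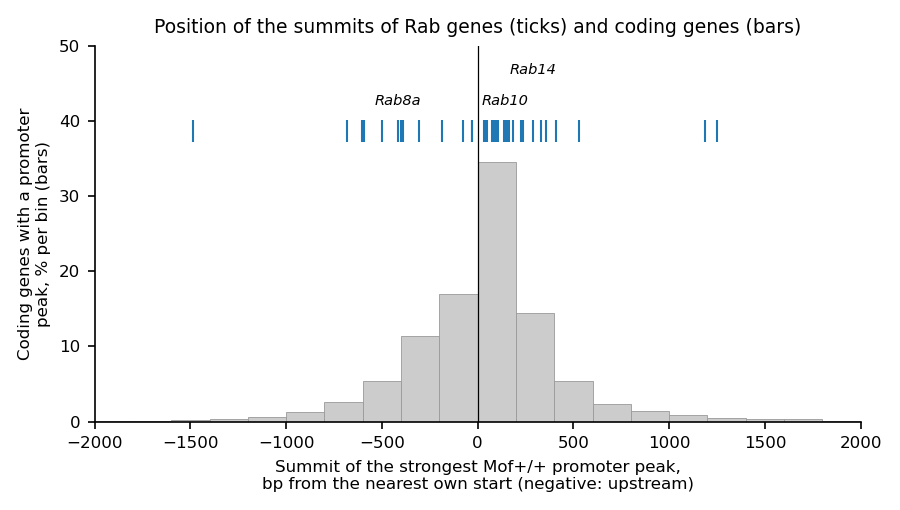
Position of the summit of the strongest Mof+/+ promoter peak relative to the nearest own start, in bp along the gene (negative is upstream). Blue ticks are the 37 Rab genes, with the 3 GLUT4 traffic genes Rab8a, Rab10 and Rab14 named, and grey bars are the coding genes with a promoter peak in percent per bin. Both gather close to the start, with Rab8a upstream and Rab10 and Rab14 downstream.

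Some promoter peaks are shared with a neighbour. The strongest peak of 11 of the 37 Rab genes reached the start of another gene (29.7%, coding genes 40.4%), and 6 summits were nearer to that start than to the Rab gene's own: those of Rab6a, Rab8a, Rab13, Rab22a, Rab26 and Rab35. A promoter peak that reached no other gene's start was found at 27 of the 55 Rab genes, and one that reached no other coding gene's start at 34. Several promoter peaks were held by 11 of the 37 genes (29.7%, coding genes 21.8%), of which Rab3a and Rab30 had 3 each.

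To ask what remained with 1 copy of Mof, the Mof+/- list was read in the same way. No Rab gene had a Mof+/- peak at a promoter or inside the gene body. The nearest one lay 38544 bp from a start of Rab40c, at chr17:25874832-25875088 with a fold of 4.6. For Rab26 it was 75247 bp away at chr17:24454290-24454699 (fold 3.46), and for Rab6a 105986 bp away at chr7:100500874-100501424 (fold 4.91). Within 100 kb, 2 of the 55 Rab genes had a Mof+/- peak (3.64%), beside 8.2% of coding genes. At the share of all coding genes, 0.753 Rab genes would have had a Mof+/- promoter peak, so 0 is near the background of this short list and is no result about the family.

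Depth was not equal either. At its lowest, the input background solved from the peaks came to 3.52 fragments for Mof+/+ and 2.26 for Mof+/-, that is, 0.642 times as many. The weakest peak in the Mof+/- list had a −log10 p of 4.72. As deposited, the strongest promoter peak passed that value in 35 of 37 Rab genes (94.6%), all but Rab42 and Rab28, beside 87.3% of coding genes with a peak. With fragments and background both lowered by that factor, 22 of 37 still passed (59.5%, coding genes 61.6%). Rab14 then had a −log10 p of 9.45, Rab8a 6.89 and Rab10 5.46, all above 4.72, and none of them is in the Mof+/- list. These values and the count of 22 carry no counting error, and each peak was the strongest of its gene. Whether depth accounts for the missing Mof+/- peaks was not tested. The genotype, the animals and other differences between the libraries cannot be told apart with 1 list for each genotype.

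**Figure D5:**
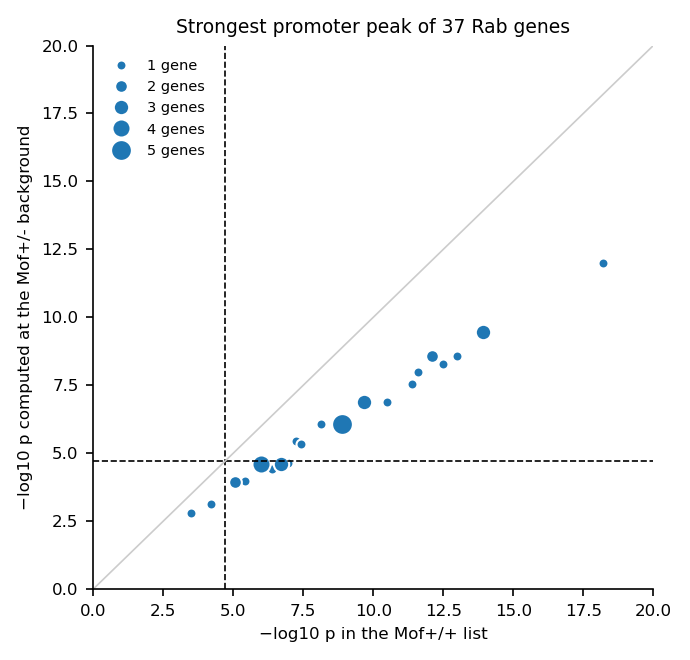
Strongest Mof+/+ promoter peak of the 37 Rab genes, as the −log10 p in the deposited list (x axis) and as computed with fragments and background lowered to the Mof+/- background (y axis). Marker size gives the number of genes at the same point, dashed lines mark the weakest Mof+/- peak (4.72) and the grey line marks equality. On the x axis 35 genes pass the line, and on the y axis 22 do.

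The genes that act on Rab proteins had promoter peaks at shares between 63% and 100%, beside 67.3% for the Rab genes and 42.7% for all coding genes, with no test of the difference. Median CpG counts of these lists ran from 67 to 79.5, beside 45 in all coding genes. Coding genes in the bin of 67 to 79 CpG sites had a promoter peak in 71.5% of cases. All 4 autosomal genes for prenylation and membrane extraction had one, Chml with a fold of 5.75, Rabggtb 4.41, Rabggta 4.01 and Gdi2 3.66. Peaks lay at 32 of 38 GAP genes (84.2%, Wilson interval 69.6 to 92.6), with Tbc1d17 at 7.08 and Tbc1d1 at 5.30. Tbc1d4, the insulin-regulated GAP of Rab10 also called AS160, was among the 6 GAP genes without one. Of the GEF genes, 23 of 30 had a peak (76.7%, 59.1 to 88.2), with Dennd4b at 7.52 and Dennd4c, a GEF of Rab10, at 3.23. The effector genes stood at 17 of 27 (63%, 44.2 to 78.5), with Rilpl2 at 4.87 and Eea1 at 4.42. In the machinery of GLUT4 vesicles, 14 of 18 genes had a peak (77.8%, 54.8 to 91). Lnpep, the aminopeptidase stored in GLUT4 vesicles, was highest with 7.30, and Sort1, Lrp1, Tbc1d4 and Ralgapa2 had none. Slc2a4, which encodes GLUT4 itself, had 3.32, below the lower quartile of 3.35 in coding genes with a peak. By ChIP with quantitative PCR in WAT, the study reported that MOF was not enriched at the Slc2a4 promoter. In the Mof+/- list, Dennd3, a GEF, and Exoc6, a subunit of the exocyst tether, had a promoter peak. No other of these regulators had one, and 1 of 30 GEF genes (3.33%) and 1 of 18 GLUT4 machinery genes (5.56%) are near the 1.37% of all coding genes at counts this small.

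Markers of the tissue's cells were read for their peaks, which are not expression. A Mof+/+ promoter peak lay at 6 of 10 adipocyte genes (among them Adipoq, Plin1 and Lipe, not Lep, Fabp4, Cidec or Retn), 5 of 6 B cell genes, 5 of 6 T cell genes, 1 of 6 macrophage genes and 1 of 6 endothelial genes, beside 42.7% of all coding genes. Which cells the peaks at Rab genes came from was not tested.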

How the data were processed

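MOF ChIP-seq of visceral WAT was analysed from the 2 deposited peak lists, 1 for each genotype, assigned by the genotype in the list's name. The authors mapped the reads to GRCm38 (snakePipes) and used MACS2 (2.1.1.20160309.3 in the submitters' notes) with input as control, keeping peaks up to a q-value of 0.1. The fold enrichment is a ratio that the authors' caller made from fragments and background at the summit. The −log10 p-value and −log10 q-value are deposited values of the same caller. The summit offset, a whole-number count of bases in the deposited lists, was used as a coordinate, and 1 column in each list was not used. Merging of peaks within 1000 bp, named in the methods, was tried as an alternative.

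Start sites are all transcript starts of GENCODE M21, and coordinates count from 1. Fragments and background were solved from fold and p (within 0.001 in −log10 p), which could not be done for 3 coding genes. Depth beyond this is unknown. Shares have 95% Wilson intervals, and a count of 0 was taken to allow 3. No tests were run, since the lists hold no replicate values, and PCR copies and shared regions can make intervals too narrow. Promoter sequences are from RefSeq (GRCm38.p6). Named genes are Rab8a, Rab10, Rab14, the 5 highest and 5 lowest by fold, the 3 nearest to a Mof+/- peak, Rab18, Rab5a, Rab7, Rab11a and every Rab gene without a promoter peak. Others were named as examples of their role after their values were seen. The members and lists were chosen with earlier results of these data known. Peak assignment was tested on simulated data. Python 3 with numpy, pandas, scipy and pysam was used.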

Additional observations from a re-analysis of the deposited data

How the results depend on the processing

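Of 59 alternative values over 5 results, 54 stayed within the limits set (a count within 1.5 times, a share within its Wilson interval, a median fold between 3.76 and 4.65). With only the 731 strongest Mof+/+ peaks by p, as many as the whole Mof+/- list holds (712 of its peaks are autosomal), 1 Rab gene (Rab43) kept a promoter peak, with a fold of 6.73, and 0 of the 3 genes Rab8a, Rab10 and Rab14 did. The share of Rab genes minus that of coding genes then turned from 24.5 to -1.50 points. By construction that setting keeps few peaks. Against coding genes in the same CpG bins, the difference was 8.98 points. Under the other alternatives it lay between 22.0 and 26.2 points, and the count of Rab genes with a Mof+/+ peak between 27 and 37. The count of 27, without Rab8a, leaves out peaks that reach another gene's start, a setting chosen after seeing the data, like that of the principal start alone (36). No setting gave a Rab gene a Mof+/- promoter peak. Apart from giving each peak to its nearest start, no setting could have done so. The nearest Mof+/- peak was 38544 bp from a Rab start, and none lay in a Rab gene body. These zeros count among the 54 values and do not show that the result is stable. No paired analysis was possible because the lists carry no replicate values, and for the same reason no replicate could be left out. The caller's threshold and a summit depth of 12 to 30 fragments limit what a missing peak can show.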
